A study of Mus musculus with 6 samples.

Results

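The Ms4a genes encode small membrane proteins that cross the membrane 4 times and lie side by side on mouse chromosome 19, where they include marker genes of several blood lineages. 8 of them are described here in granulocyte-macrophage progenitors (GMPs), the bone marrow cells that give rise to granulocytes and monocytes: Ms4a1, Ms4a2, Ms4a3, Ms4a4c, Ms4a6b, Ms4a6c, Ms4a6d and Ms4a7. They were taken by symbol from the 37620 gene rows of the deposited GMP table, in which 7 other Ms4a genes are listed as well, and all 8 had enough reads to be tested. Ms4a1 and Ms4a7 reached the limit for testing only through the control group. Ms4a3 was higher in the knockout-labelled libraries and the other 7 were lower.

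Ms4a1 encodes CD20, the B cell surface protein targeted by rituximab. Ms4a2 encodes the beta chain of the high-affinity IgE receptor, which amplifies the signal of the receptor on basophils and mast cells. Ms4a3, also called HTm4, is a gene of granulocyte and monocyte progenitors whose human protein binds the phosphatase CDKN3 and through it CDK2. Ms4a4c, the Ms4a6 genes and Ms4a7 are known from monocytes and macrophages, though not all of them from these cells alone.

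RNA came from sorted GMPs of C57BL/6 mice, with 3 libraries in each of 2 groups. Control mice carried Bap1 f/f alleles and no Cre, and the other group carried Mx1-Cre with Bap1 f/f, so that only this group had the transgene. Both groups received polyI:polyC (pIpC), which drives the interferon-responsive Mx1 promoter in many blood cells and not in GMPs alone. The labels give an age of 65 days with pIpC at day 42, whereas the series' own design text has the injections at a younger age. Cells were sorted as Lineage- and Sca1-, with c-Kit+ and CD34+ and a stain for Fcγ receptors. The labels call the mice littermates but do not tie each library to an animal of its own, so p-values measure the spread between these libraries. In bulk RNA of this kind, fewer cells of a type and less RNA per cell cannot be told apart.

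The libraries held 19.5 to 25.9 M gene reads each, and values are read counts divided by the size factor of the library (normalized counts, 1 read being worth 0.889 to 1.14). Bap1 itself was higher in the libraries labelled knockout, at 2983 ± 319 normalized counts against 1139 ± 181 in control (SD, n = 3 each; log2 fold change 1.39, limma adjusted p = 6.07e-05). That count is summed over the whole gene and does not separate deleted exons from the rest, so it goes against the label without measuring the deletion, and the group is called knockout-labelled throughout. The granulocyte genes Mpo (509919 ± 18682 normalized counts in control) and Elane (268365 ± 12107) were among the genes with the largest counts. Kit, which is part of the gate, rose from 1096 ± 86.1 to 1524.5 ± 152 (log2 fold change 0.47, limma adjusted p = 0.0214), with groups that did not overlap. Cd34, which is also part of the gate, fell from 11499 ± 297 to 3963 ± 244 normalized counts, and Fcgr3, which encodes an Fcγ receptor, from 13250.1 ± 728 to 7836 ± 1485. Ly6a, which encodes Sca1 and was gated against, was read at 88.6 ± 42.3 in control and 59.9 ± 15.7 in the other group. One library per group, control replicate 1 and knockout-labelled replicate 3, came from a female by Xist, at 5109 and 3740 normalized counts against 2.67 to 90.6 in the other 4 libraries.

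Promoter sequences are shown for the 2 pairs of neighbours that matter most for the results: Ms4a2 and Ms4a3, which lie next to each other and moved in opposite directions, and Ms4a6b and Ms4a6c, which moved together. They are RefSeq windows on build GRCm38.p6, from 250 bases before to 50 after the annotated start, written 5′ to 3′ on the strand of the gene. Such windows matched 6 of the 8 genes; Ms4a1 and Ms4a6d had none. Capitals mark matches on either strand to short motifs. The ETS motif was searched as GGAAGT, a form like that of PU.1 as GAGGAA, the CEBP motif as TTGCNNAA, the GATA motif in an A form as AGATAA and in a T form as TGATAA, the RUNX motif as TGTGGT and the EBF motif as CCCNNGGG, and an IRF motif was searched as well.

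Ms4a2, chr19:11623670-11623969, minus strand: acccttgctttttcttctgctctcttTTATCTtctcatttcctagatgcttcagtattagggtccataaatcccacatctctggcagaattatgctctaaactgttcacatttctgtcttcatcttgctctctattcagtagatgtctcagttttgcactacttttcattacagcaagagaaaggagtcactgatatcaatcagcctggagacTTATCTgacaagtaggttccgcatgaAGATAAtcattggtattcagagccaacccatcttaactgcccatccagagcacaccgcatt

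Ms4a3, chr19:11640802-11641101, minus strand: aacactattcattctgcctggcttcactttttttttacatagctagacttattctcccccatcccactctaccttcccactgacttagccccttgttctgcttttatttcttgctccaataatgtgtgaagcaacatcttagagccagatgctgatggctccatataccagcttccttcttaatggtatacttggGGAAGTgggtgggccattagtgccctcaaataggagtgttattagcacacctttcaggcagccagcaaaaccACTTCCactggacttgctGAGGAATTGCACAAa

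Ms4a6b, chr19:11518309-11518608, plus strand: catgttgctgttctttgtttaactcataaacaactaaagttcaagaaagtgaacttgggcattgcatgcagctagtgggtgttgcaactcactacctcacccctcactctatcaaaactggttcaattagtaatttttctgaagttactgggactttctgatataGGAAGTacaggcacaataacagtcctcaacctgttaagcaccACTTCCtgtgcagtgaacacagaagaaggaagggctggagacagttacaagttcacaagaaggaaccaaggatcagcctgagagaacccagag

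Ms4a6c, chr19:11469118-11469417, plus strand: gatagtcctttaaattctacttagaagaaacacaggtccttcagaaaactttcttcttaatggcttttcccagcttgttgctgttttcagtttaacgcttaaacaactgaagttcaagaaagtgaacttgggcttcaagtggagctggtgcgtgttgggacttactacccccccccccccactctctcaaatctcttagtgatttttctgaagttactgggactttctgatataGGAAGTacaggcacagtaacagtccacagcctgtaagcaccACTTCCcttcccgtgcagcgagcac

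The Ms4a2 window held 3 AGATAA matches, 2 of them on the opposite strand (as TTATCT), with first bases at -224, -37 and -11 from the start. Of 32851 windows of this length, 11.2% held at least 1 AGATAA and 0.106% (35 windows) held 3 or more. The Ms4a3 window held 2 GGAAGT matches, at -55 and, on the opposite strand, at 17, followed by the PU.1-like motif at 35 and the CEBP motif at 41, which adjoin in the sequence. The ETS motif was in 23.8% of all windows, the PU.1-like one in 28.3% and the CEBP motif in 10.8%, and all 3 were together in 0.795% (261 windows). ETS and PU.1-like matches without a CEBP match also lay in windows not printed here. They were at -15 and -61 for Ms4a4c and at -15 and 43 in a window of Ms4a7, and both genes fell. Ms4a6b and Ms4a6c each held 2 GGAAGT matches, as did 4.18% of windows with 2 or more, and the 2 windows shared an unbroken run of 48 bases, against 12 at most for any other pair of member windows. The 4 printed windows held no match to the other motifs, of which the T form of GATA was in 9.05% of all windows, the IRF motif in 3.44%, the RUNX motif in 16.8% and the EBF motif in 13.7%. A match is a run of letters and does not show that a factor binds there.

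All 8 genes passed the threshold of an adjusted p of 0.05 (limma on log2 of the normalized count plus 1), and in all 8 the 3 control values did not overlap the 3 knockout-labelled values. Across the 14391 genes tested, 26.8% were called, 11.8% higher and 15.0% lower, and 42.9% had groups that did not overlap, 20.4% higher and 22.5% lower. The median log2 fold change of the 8 genes was -2.13, beside 0.0054 for all tested genes. Testing required a mean of at least 10 normalized counts over all libraries. Ms4a1 and Ms4a7, with knockout-labelled means of 4.24 and 5.35, met this only through control. Their lower direction is therefore not free of the filter and adds no support of its own. The same holds for low genes of the lists below, such as Cd79a and Cd200r3.

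**Figure D1:**
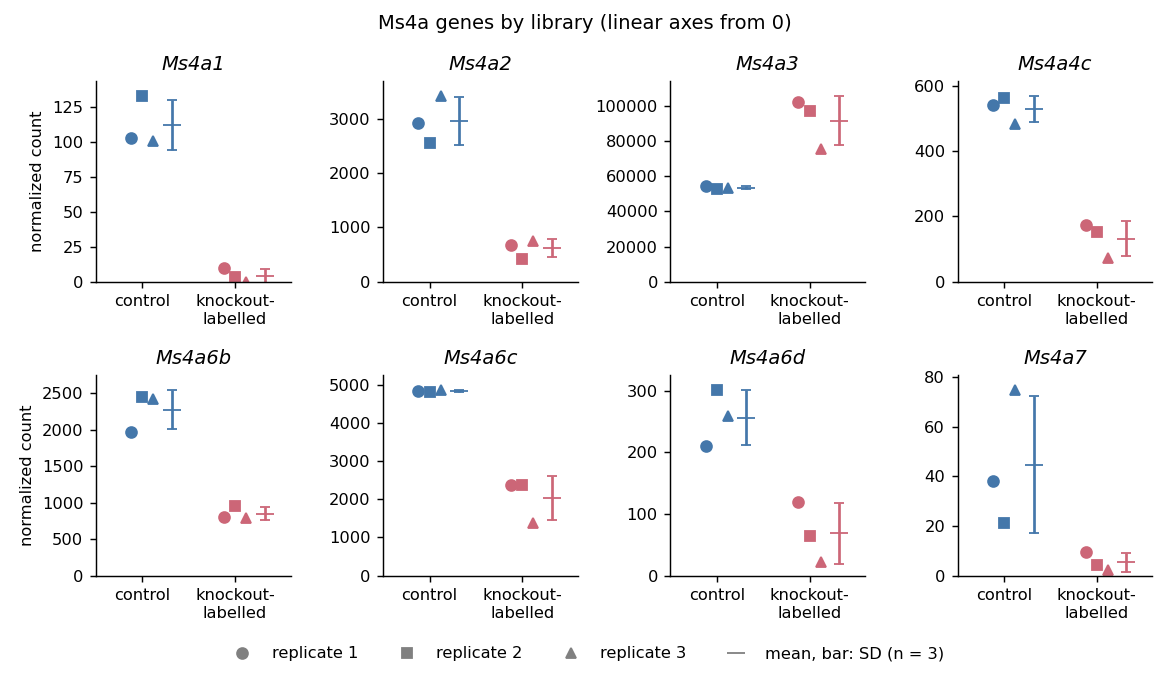
Normalized count of each Ms4a gene in the 3 control (blue) and 3 knockout-labelled (red) libraries, on linear axes that start at 0, with the group mean and SD (n = 3; the bar of Ms4a1 stops at 0). Every gene but Ms4a3 is lower in all 3 knockout-labelled libraries, and Ms4a3 rises from between 52788 and 54592 to between 75599.5 and 101984.

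Ms4a3 (ENSMUSG00000024681) was read at 54592, 52788 and 53017 normalized counts in control replicates 1 to 3 and at 101984, 97086.5 and 75599.5 in the knockout-labelled ones. The control values lay close together, with a coefficient of variation of 1.84%, and the knockout-labelled values were spread more widely, at 15.3%, with replicate 3 the lowest. The group means were 53465.5 ± 982 and 91557 ± 14034.5 normalized counts (SD, n = 3), a 1.70-fold rise (log2 fold change 0.76, SE 0.14, limma adjusted p = 0.00214).

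Granule genes of neutrophils, with the transcription factor genes Cebpe and Gfi1 and the inhibitor gene Serpinb1a, were measured beside Ms4a3. 7 of 14 tested genes of this list rose and none fell, with a median log2 fold change of 0.69. Cebpe, Gfi1 and Serpinb1a, which do not encode granule proteins, were among those 7. The others were Elane, Ctsg, Lcn2 and Hp. Elane, which encodes neutrophil elastase, rose to 444320 ± 134556 normalized counts (log2 fold change 0.69, adjusted p = 0.0263). That call was lost without control replicate 1, 2 or 3 (adjusted p = 0.0952, 0.101 and 0.14; over all alternatives 0.000306 to 0.14). Ctsg, the cathepsin of the primary granules, rose from 24048 ± 2222 to 39007 ± 3032 (log2 fold change 0.70, adjusted p = 0.00153). Serpinb1a, an inhibitor of these proteases, rose from 47572 ± 3624 to 98845 ± 22083 (log2 fold change 1.03, adjusted p = 0.00108). Mpo, at 635305 ± 122886 in the knockout-labelled group, did not pass (log2 fold change 0.30, adjusted p = 0.251), except without knockout-labelled replicate 1 (0.44, adjusted p = 0.04997). Ltf, which encodes lactoferrin of the secondary granules, was read at 18279, 22663 and 13698 in control and at 9254, 13744 and 2019 in the other group, with overlapping groups. It missed the threshold on the lower side (log2 fold change -1.49, adjusted p = 0.0536) and was called lower in 6 of 16 alternatives, among them those without knockout-labelled replicate 2 (-2.04) and replicate 3 (-0.66; adjusted p over all alternatives 0.00381 to 0.287). Other secondary granule genes of the list did not follow Ltf as a group. Lcn2 rose from 10897 ± 2933 to 22003 ± 5117 (log2 fold change 1.02, adjusted p = 0.00377). Camp (0.70, adjusted p = 0.161) and Ngp (0.59, adjusted p = 0.169) lay above 0 and Mmp8 (-0.29, adjusted p = 0.653) below, and none of them passed. The summed level of the list ran from 984358 to 1093972 normalized counts in control and from 1264399 to 1891028 in the knockout-labelled libraries. Its part in the result for Ms4a3 was not tested.

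Cdkn3 and Cdk2, the genes of the named partners of MS4A3, were measured in a list with other cyclin, kinase and inhibitor genes of the cell cycle. The list gave no common direction, with a median log2 fold change of 0.08. Cdkn3 was at 1436 ± 88.2 normalized counts in control and 1734 ± 521 in the knockout-labelled group (log2 fold change 0.22, adjusted p = 0.448), and without knockout-labelled replicate 3 it was called higher (0.50, adjusted p = 0.0153). Cdk2 was at 2831 ± 213 and 2807 ± 94.5 (log2 fold change -0.01, adjusted p = 0.959). Of the 8 genes of this list, only Cdkn1a, the p21 inhibitor of cyclin-dependent kinases, rose (from 140 ± 23.9 to 322 ± 36.6, log2 fold change 1.20, adjusted p = 0.00219), and only Ccne2, a cyclin of the G1/S transition, fell (from 2944 ± 276 to 1661 ± 311, log2 fold change -0.84, adjusted p = 0.00188). Such counts are near the shares of all tested genes, 11.8% higher and 15% lower.

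Ms4a2 (ENSMUSG00000024680), the next gene on the chromosome, was read at 2909, 2549 and 3416 normalized counts in control and at 679.5, 425 and 742 in the knockout-labelled libraries. Every knockout-labelled value was well below the lowest control value. The means were 2958 ± 435 and 616 ± 168 (SD, n = 3), a 4.90-fold fall (log2 fold change -2.29, SE 0.20, adjusted p = 2.02e-05). Within each library, the log2 normalized count of Ms4a3 minus that of Ms4a2, not scaled for length, was 3.96 to 4.37 in control and 6.67 to 7.83 in the knockout-labelled group. This gap, whose change does not depend on length, widened by 3.06 log2 units, with ranges that did not overlap. An exact 2-sided permutation test of that change gave p = 0.1, the smallest that 3 against 3 libraries allow (0.30 adjusted over the 6 pairs of members compared).

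The other chains of the IgE receptor did not move alike. Fcer1a, which encodes the chain that binds IgE, was read at 2148, 1513.5 and 1232 normalized counts in control and at 425, 498 and 542 in the knockout-labelled libraries (log2 fold change -1.71, SE 0.20, adjusted p = 0.000122). Its groups did not overlap. Fcer1g, the signalling chain that other Fc receptors share, was at 7398, 7045 and 6824 against 6000.3, 6712 and 4744, with groups that did not overlap but a difference that missed the threshold (log2 fold change -0.30, adjusted p = 0.121). Without knockout-labelled replicate 2 it passed (-0.41, adjusted p = 0.0471), as it did with a correction for GC and length (-0.47, adjusted p = 0.00858).

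In a list of the receptor chains and their signalling genes, 2 of 15 tested genes rose and 3 fell, with a median log2 fold change of -0.10. These counts are near the shares of all tested genes, 11.8% higher and 15% lower, so they mark out no change of the list. Fcer1a is 1 of the 3 that fell; the others were Lcp2, the adaptor SLP-76 (log2 fold change -0.91, adjusted p = 0.000934), and the kinase Lyn (-0.49, adjusted p = 0.0197). The adaptors Lat (0.96, adjusted p = 0.0303) and Gab2 (0.90, adjusted p = 0.00891) rose. The call of Lyn was lost without control replicate 2 or 3 (adjusted p = 0.0774 and 0.0945). That of Lat was lost without control replicate 2 or 3 or knockout-labelled replicate 1 or 3 (adjusted p = 0.128, 0.0551, 0.0644 and 0.103). The kinase Syk was at 1152 ± 88.0 and 1076 ± 72.8 normalized counts (log2 fold change -0.10, adjusted p = 0.623). The summed level of the list ran from 21600 to 22994 normalized counts in control and from 17500 to 19312 in the knockout-labelled group.

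Other genes of basophils and mast cells were also measured beside Ms4a2. Of 12 tested, 6 fell, 1 rose and 5 did not pass, with a median log2 fold change of -0.95. Prss34, a basophil protease, was read at 24252, 28555 and 30820.2 normalized counts in control and at 953, 571 and 1149.9 in the knockout-labelled libraries (log2 fold change -5.02, adjusted p = 1.46e-07). Cd200r3, a receptor of basophils and mast cells, fell from 189 ± 35.2 to 7.63 ± 2.49 (log2 fold change -4.48, adjusted p = 2.40e-05). In contrast, Mcpt8, another basophil protease, rose from 7027 ± 1139 to 10907 ± 2388 (log2 fold change 0.62, adjusted p = 0.0168), a call that was lost without control replicate 1 (0.53, adjusted p = 0.0723) and without control replicate 2 (0.59, adjusted p = 0.0764; over all alternatives 0.00157 to 0.0764). Cpa3, a carboxypeptidase of mast cells and basophils, fell from 8419 ± 1352 to 5821 ± 1560 with overlapping groups (log2 fold change -0.56, adjusted p = 0.0438). Its call was lost in 7 of 16 alternatives, among them those without control replicate 2 or 3 or knockout-labelled replicate 1 or 2 (adjusted p = 0.108, 0.185, 0.0748 and 0.145). The mast cell proteases Tpsab1 and Mcpt4 had 0 reads in all 6 libraries, and Tpsb2 in all 3 knockout-labelled ones. Tpsb2 had only 0, 9 and 14 reads in control and was not tested. The summed list level ran from 48924 to 58781 normalized counts in control and from 20197 to 30288 in the knockout-labelled group. Prss34 alone, at 27876 ± 3337 in control and 891 ± 295 in the knockout-labelled group, made up most of that difference. The part of the list in the fall of Ms4a2 was not tested.

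**Figure D2:**
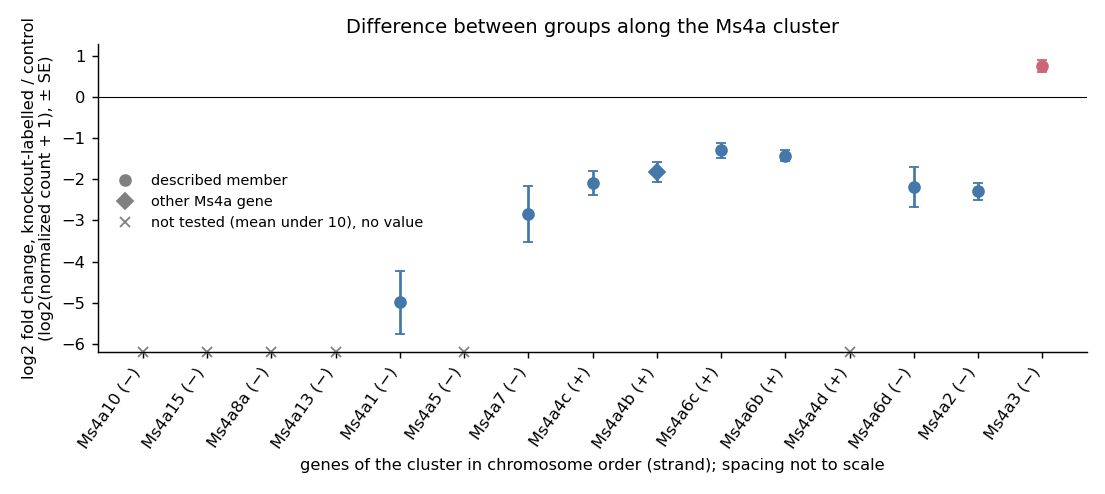
Log2 fold change (knockout-labelled against control, on log2 of the normalized count plus 1, bar: SE) of the Ms4a genes in their order along the chromosome, with the strand in brackets and spacing not to scale. Crosses on the lower edge are genes with too few reads to test and carry no value; Ms4a3, at the right end, is the only tested gene above 0, next to Ms4a2 at -2.29.

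Ms4a6c (ENSMUSG00000079419) had the most even control values of the 8 genes, 4820.1, 4816 and 4867 normalized counts, against 2377, 2368 and 1377 in the knockout-labelled libraries. The coefficient of variation was 0.586% in control and 28.2% in the knockout-labelled group, where replicate 3 was the lowest. The means were 4834 ± 28.3 and 2040.5 ± 574 (SD, n = 3), a 2.44-fold fall (log2 fold change -1.29, SE 0.19, adjusted p = 0.000536).

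Ms4a6b (ENSMUSG00000024677), next to Ms4a6c on the same strand, was read at 1961, 2444 and 2419 normalized counts in control and at 799, 954 and 796 in the knockout-labelled libraries. The groups were far apart, and each was tight. The means were 2275 ± 272 and 849.5 ± 90.2 (SD, n = 3), a 2.67-fold fall (log2 fold change -1.42, SE 0.14, adjusted p = 4.76e-05). The log2 gap between Ms4a6b and Ms4a6c changed by -0.13 between the groups (exact permutation p = 0.6, adjusted 0.60).

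Ms4a6d (ENSMUSG00000024679), on the opposite strand, had fewer reads: 211, 301 and 258 normalized counts in control and 119, 64.6 and 21.7 in the knockout-labelled libraries. The highest knockout-labelled value was still below the lowest control value, but the 3 knockout-labelled values spanned a wide range. The means were 257 ± 45.2 and 68.6 ± 49.0 (SD, n = 3), a 4.52-fold fall (log2 fold change -2.18, SE 0.49, adjusted p = 0.0069). Without knockout-labelled replicate 3 the log2 fold change was -1.52. Its gap to Ms4a6c widened by 0.89 log2 units (exact permutation p = 0.2, adjusted 0.30) and to Ms4a6b by 0.76 (exact permutation p = 0.4, adjusted 0.48), both with overlapping ranges.

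Ms4a4c (ENSMUSG00000024675) was read at 541, 561 and 484 normalized counts in control and at 173, 152 and 71.9 in the knockout-labelled libraries. Control values were again even, and replicate 3 was again the lowest of the knockout-labelled group. The means were 529 ± 39.9 and 132 ± 53.3 (SD, n = 3), a 4.24-fold fall (log2 fold change -2.08, SE 0.30, adjusted p = 0.00049).

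Ms4a7 (ENSMUSG00000024672), a gene of mature macrophages, rested on few reads: 43, 22 and 84 in control and 9, 4 and 2 in the knockout-labelled libraries. As normalized counts these were 38.2, 21.0 and 74.9 against 9.60, 4.16 and 2.28. The control libraries differed among themselves by more than 3-fold, and all 3 stood above the knockout-labelled ones. The log2 fold change was -2.84 (SE 0.68, adjusted p = 0.0104), 7.14-fold down. Without control replicate 3 it was -2.38 and no longer passed (adjusted p = 0.0661; over all alternatives 0.00145 to 0.0661).

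Genes of monocytes and macrophages were mostly lower as well: 16 of 20 tested fell, 1 rose and 3 did not pass, with a median log2 fold change of -2.27. Csf1r, the receptor for the macrophage growth factor, was read at 2426, 2263 and 2121 normalized counts in control and at 431, 724 and 238 in the knockout-labelled libraries (log2 fold change -2.43, adjusted p = 0.000199). Irf8, a transcription factor needed for monocytes and dendritic cells, was read at 6208, 5914 and 5677 against 1238, 2361 and 587 (log2 fold change -2.31, adjusted p = 0.000833). For both genes, as for 7 of the 8 Ms4a genes, replicate 3 was the lowest of its group.

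Ccr2, the chemokine receptor of inflammatory monocytes, fell from 3448 ± 196 to 1403 ± 369 normalized counts (log2 fold change -1.33, adjusted p = 0.000243). F13a1, a transglutaminase that monocytes make, fell from 12565 ± 808 to 2187 ± 90.0 (log2 fold change -2.52, adjusted p = 1.46e-07), and Cx3cr1, a chemokine receptor of patrolling monocytes and macrophages, from 519 ± 62.2 to 22.0 ± 12.2 (log2 fold change -4.69, adjusted p = 2.88e-05). Ly6c2, the surface marker of inflammatory monocytes, was read at 57137, 66624 and 60556.5 in control and at 87914, 98227 and 46716 in the other group, and did not pass (log2 fold change 0.27, adjusted p = 0.418), but was called higher without knockout-labelled replicate 3 (0.60, adjusted p = 0.00248). The gene that rose was Cd68, a lysosomal glycoprotein of macrophages (log2 fold change 1.20). The summed level of the list ran from 117210 to 135254 normalized counts in control and from 57690 to 119660 in the knockout-labelled group. Ly6c2, which did not pass, had the largest count of the list in both groups and weighed most in that sum. The part of the list in the fall of the Ms4a6 genes, Ms4a4c and Ms4a7 was not tested.

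Dendritic cell genes, which share several regulators with monocytes, gave 9 of 11 tested lower, none higher and a median of -2.50. Tcf4, the regulator of plasmacytoid dendritic cells, fell from 1079 ± 70.3 to 148 ± 46.0 normalized counts, and Bst2, a surface protein of the same cells, from 1004 ± 120 to 249 ± 70.0. The summed dendritic level ran from 9313 to 25477 in control and from 2167 to 5418 in the knockout-labelled libraries.

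Ms4a1 (ENSMUSG00000024673) was read at 116, 139 and 113 reads in control and at 9, 3 and 0 in the knockout-labelled libraries. As normalized counts these were 103, 133 and 101 against 9.60, 3.12 and 0, so that every control library was at least 10 times above every knockout-labelled one. A count of 0 in replicate 3 allows a level of up to 3.43 normalized counts (3 reads, counting error only). The ratio of the group means, 112 ± 17.9 and 4.24 ± 4.90 (SD, n = 3), was 26.5. The log2 fold change was -4.99 (SE 0.76, adjusted p = 0.000742), and its size depended on the pseudocount and on single libraries. It was -3.98 with a pseudocount of 4, -5.79 without knockout-labelled replicate 1 and -4.09 without replicate 3.

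Other B lineage genes fell with Ms4a1: 12 of 13 tested were lower and none higher, with a median log2 fold change of -4.21. Cd79a, which signals for the B cell receptor, fell from 163 ± 10.5 to 6.92 ± 2.53 (log2 fold change -4.43, adjusted p = 3.60e-05). Its partner Cd79b fell from 1791 ± 150 to 1131 ± 157 (log2 fold change -0.67, adjusted p = 0.00479). Cd22, Pax5, Vpreb3 and Fcmr had 0 reads in all 3 knockout-labelled libraries. Their control reads were also few: 47, 47 and 36 for Cd22 and 81, 81 and 51 for Vpreb3. Pax5 (7, 4 and 6) and Fcmr (3, 22 and 22) had too few to be tested. The summed level of the list ran from 2913 to 3416 normalized counts in control and from 1343 to 1661 in the knockout-labelled group, and Cd79b made up most of that count. The part of B lineage RNA in the fall of Ms4a1 was not tested.

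T and NK genes were lower in 4 of 7 tested and higher in 1, beside 15% lower and 11.8% higher of all tested genes. The median of -2.10 was the value of Il7r, which did not pass (limma adjusted p = 0.102). Ncr1, Cd2 and Il7r reached the limit for testing only through control, so their lower direction adds no support of its own. Ncr1, an activating receptor of NK cells, fell from 93.7 ± 52.9 to 0.347 ± 0.601 normalized counts, and Lck, the kinase of the T cell receptor, from 130.2 ± 20.3 to 31.7 ± 7.97. Cd2 and Cd4 had 0 reads in all 3 knockout-labelled libraries, against 41, 20 and 50 (Cd2) and 27, 25 and 3 (Cd4) in control. Cd4 had too few reads to be tested. The exception was Nkg7, a granule protein of cytotoxic cells with the largest count of the list (28955 ± 943 to 46708 ± 9865). It set the summed level, 28246 to 30322 in control and 36448 to 56016 in the knockout-labelled group.

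**Figure D3:**
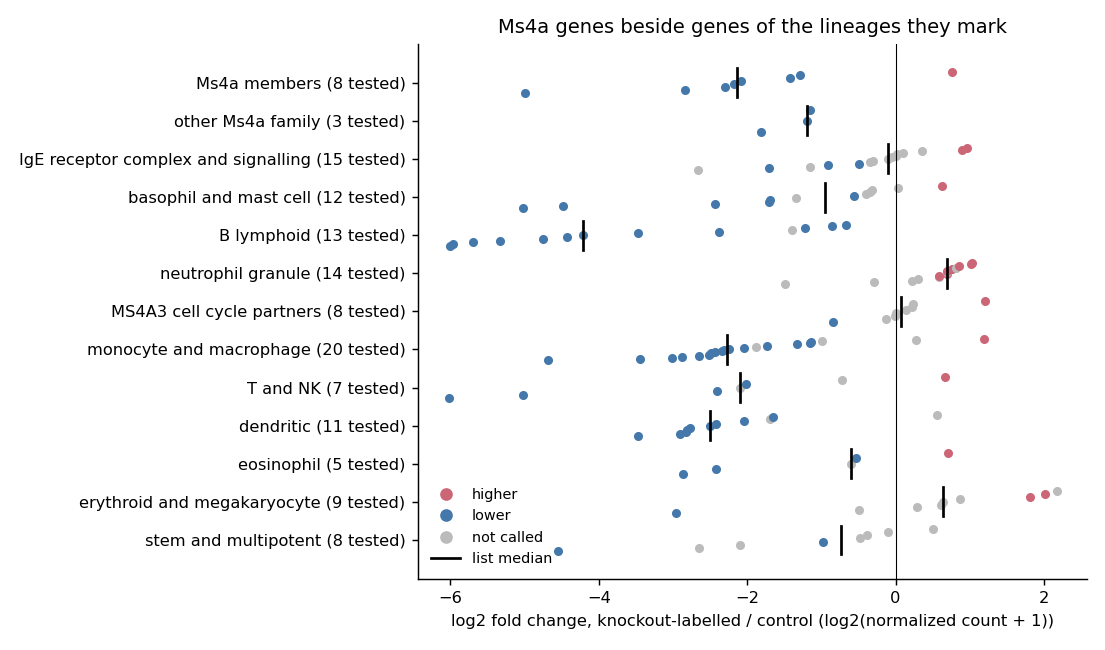
Log2 fold change of every tested gene (points) in the 8 Ms4a genes and in each list of lineage genes, knockout-labelled against control, with the median of each list as a black bar. Higher genes are red, lower genes blue and genes that did not pass grey; the B lymphoid median lies at -4.21 and the neutrophil granule median at 0.69.

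Of the 7 other Ms4a genes in the table, only Ms4a4b had enough reads to test. Ms4a4b, known from T cells, was read at 459, 377 and 478 normalized counts in control and at 156, 132 and 90.2 in the knockout-labelled libraries (log2 fold change -1.82, SE 0.24, adjusted p = 0.000313), with groups that did not overlap. Ms4a4d had 1, 0 and 1 reads in control and 0, 1 and 10 in the knockout-labelled libraries, and Ms4a8a had 6, 0 and 1 against 10, 12 and 0. Ms4a5, Ms4a10, Ms4a13 and Ms4a15 had 0 reads in all 6. Tmem176a and Tmem176b, more distant relatives on another chromosome, fell from 1404 ± 143 to 636 ± 127 (log2 fold change -1.15, adjusted p = 0.000494) and from 4708 ± 449 to 2081 ± 427 (-1.19, adjusted p = 0.000221).

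Along the chromosome, the tested genes came in the order Ms4a1, Ms4a7, Ms4a4c, Ms4a4b, Ms4a6c, Ms4a6b, Ms4a6d, Ms4a2 and Ms4a3. Ms4a3 lies at one end, and Ms4a2 beside it fell. The largest falls, of Ms4a1 and Ms4a7, were in the genes with the fewest reads. The genes with no reads, Ms4a5, Ms4a10, Ms4a13 and Ms4a15, all lie on the side of the cluster that holds Ms4a1.

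Close copies within the family limit how reads can be told apart. Ms4a4c and Ms4a4b were 91.7% identical over 678 aligned coding bases, Ms4a6b and Ms4a6c 86.4%, Ms4a6b and Ms4a6d 81.8% and Ms4a6c and Ms4a6d 79.6%, whereas Ms4a2 and Ms4a3 were 63.6% identical. The share of a gene's 50-base stretches that also occur in transcripts of another gene was 8.19% for Ms4a4c, 3.57% for Ms4a6b, 2.54% for Ms4a6d, 2.10% for Ms4a2, 1.21% for Ms4a1, 0.306% for Ms4a7 and 0 for Ms4a3. For Ms4a6c it was 51.4%, nearly all of it with BE692007, an antisense gene that overlaps it and has no row in the table. Without stated strand, antisense reads cannot be told from those of Ms4a6c, whose values are uncertain to that extent.

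Levels of different genes can be compared only per length, as reads per kilobase of merged exons per 1e6 gene reads. On this scale the order in control was Ms4a3 (1232 ± 23.4), Ms4a6c (102.4 ± 0.658), Ms4a2 (45.7 ± 6.75), Ms4a6b (22.0 ± 2.62), Ms4a4c (13.1 ± 0.982), Ms4a6d (6.42 ± 1.13), Ms4a1 (0.787 ± 0.125) and Ms4a7 (0.436 ± 0.268; SD, n = 3 each). All neighbours in this order were separated in every control library except Ms4a1 and Ms4a7, whose values overlapped. In the knockout-labelled group the levels were 2029 ± 212 for Ms4a3, 41.3 ± 9.65 for Ms4a6c, 9.28 ± 2.98 for Ms4a2, 7.93 ± 0.576 for Ms4a6b, 3.12 ± 1.14 for Ms4a4c, 1.63 ± 1.14 for Ms4a6d, 0.0497 ± 0.0345 for Ms4a7 and 0.0280 ± 0.0327 for Ms4a1. There Ms4a2 (6.02 to 11.9) overlapped Ms4a6b (7.33 to 8.48), Ms4a4c (1.85 to 4.06) overlapped Ms4a6d (0.563 to 2.83), and Ms4a1 again overlapped Ms4a7.

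**Figure D4:**
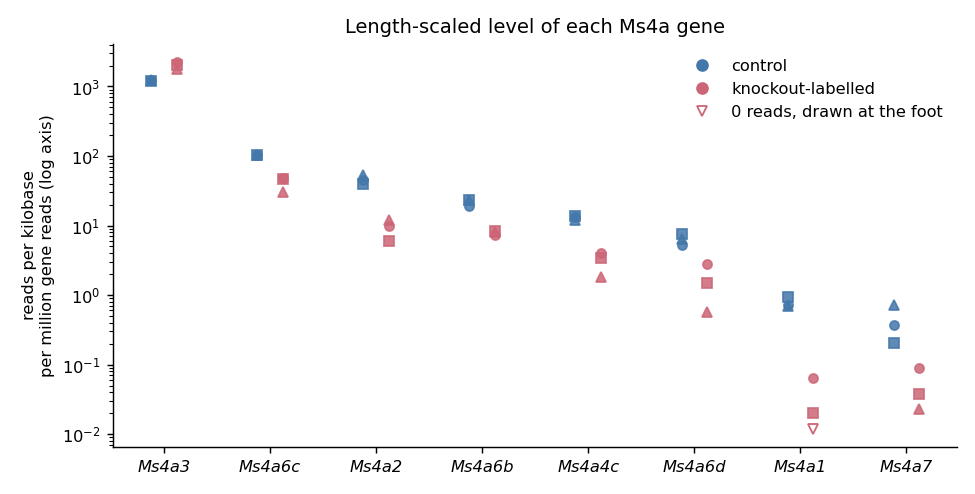
Reads per kilobase per 1e6 gene reads of each Ms4a gene on a log axis, 1 point per library (circle, square and triangle for replicates 1, 2 and 3; blue control, red knockout-labelled). Ms4a3 stands alone at the top in both groups, and the open triangle is the library with 0 Ms4a1 reads, which has no place on a log axis.

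Ms4a3 supplied 82.9 ± 0.871% of the reads of the 8 genes in control and 96.1 ± 0.0556% in the knockout-labelled group (SD, n = 3). Together the 8 genes took 0.280 ± 0.0037% of all gene reads in control and 0.398 ± 0.0418% in the other group. The sum of the other 7 fell from 11010 ± 542 to 3716 ± 618 normalized counts while Ms4a3 rose.

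Libraries of the knockout-labelled group differed more from each other than control libraries did: chi-square per gene between 2 libraries, which is about 1 for sampling noise alone, was 42.4 to 51.2 for knockout-labelled pairs and 13.3 to 17.9 for control pairs. Replicate 3 was the lowest of its group for 7 of the 8 genes, beside 35.2% of all tested genes, and replicate 1 was the highest for 6. Ms4a2 was the exception, highest in replicate 3 (742) and lowest in replicate 2 (425). Replicate 3 was also the only female library of its group. Without it all 8 genes were still called, with Ms4a3 at a log2 fold change of 0.90, Ms4a2 at -2.45, Ms4a6c at -1.03, Ms4a6b at -1.37, Ms4a4c at -1.70 and Ms4a7 at -2.45. A term for sex left all 8 called.

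The profiles of the members over the 6 libraries were compared with those of all tested genes, as the root mean square difference of log2 values after each gene's own mean was removed. Since 2 groups dominate 6 libraries, a small distance mainly means a like fold change, and it is a description only. Nearest to Ms4a3 were Slc25a17, a peroxisomal carrier (0.0491), and Zdhhc3, a palmitoyltransferase (0.0585). Nearest to Ms4a2 were Rfx3 (0.0929) and S100a4 (0.109), to Ms4a6c Abcb9 (0.0675) and Cgas, the cytosolic DNA sensor (0.0915), and to Ms4a6b Iqgap2 (0.0956) and Depdc1b (0.102). Ms4a4c lay nearest to Lyz1, a lysozyme gene (0.0866), and Dnajc18 (0.142), and Ms4a6d to Plekho1 (0.163) and Gm10108 (0.266). The rarer genes had more distant neighbours, Pkib (0.314) and Arl3 (0.401) for Ms4a1, and C1qc, a complement gene of macrophages (0.243), and Gcsam (0.356) for Ms4a7. C1qc was read at 52.2 ± 28.7 normalized counts in control and 6.77 ± 3.12 in the knockout-labelled group.

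Among the members themselves, Ms4a6b and Ms4a6c had the most similar profiles (0.259), followed by Ms4a4c and Ms4a6d (0.372). Ms4a1 and Ms4a3 were the farthest apart (3.01). The log2 gap between Ms4a3 and Ms4a6c, the 2 most abundant members per length, widened by 2.05 units, from 3.45 to 3.50 in control to 5.36 to 5.78 in the knockout-labelled libraries (exact permutation p = 0.1, adjusted 0.30). The log2 difference Ms4a2 minus Ms4a6c went from -0.72 in control to -1.72 on average, with overlapping ranges (exact permutation p = 0.2, adjusted 0.30).

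Lists of 3 other lineages were measured as well, beside 11.8% of all tested genes higher and 15% lower. Of 5 eosinophil genes, 3 fell and 1 rose (median -0.59), with a summed level of 44082 to 51502 normalized counts in control and 28705 to 32643 in the knockout-labelled group. Of 9 erythroid and megakaryocyte genes, 2 rose and 1 fell (median 0.64). Of 8 stem and multipotent genes, 2 fell and none rose (median -0.73). Procr, a surface marker of stem cells, had 0 reads in all 3 knockout-labelled libraries and 28, 25 and 21 in control.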

How the data were processed

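Total RNA from 6 GMP libraries was amplified by a SMARTer method for low input and sequenced as Ion Torrent libraries, per the labels' protocols, by PCR without molecular identifiers, so intervals and floors cover counting error only. The submitters' processing notes list DESeq2, HTSeq, STAR, BWA 0.7.5a and Picard with builds mm9 and NCBIM37, without their roles. The deposited values are a signal per gene: counts that the authors divided by 1 size factor per library. In every library 100% of values were whole multiples of 1 read (tolerance 0.01). Gene reads were 22.9 to 25.2% of the reads listed; 5 rows that name no gene, holding reads beyond genes (38.4 to 40.9%), with several alignments (26.8 to 28.8%), not aligned (6.30 to 11.6%) or ambiguous (0.120 to 0.130%), were left out. Reads with several alignments were therefore counted for no gene. The strand setting of the counting was not given in the sources used here.

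Genes with a mean of at least 10 normalized counts were tested with limma 3.58.1 (R 4.3.3; trend, 2-sided) on log2(value + 1), control against knockout-labelled, with Benjamini-Hochberg adjustment over all tested genes. Fold changes are on this scale, where the added 1 shrinks those of low genes and means are of logs, so they can differ either way from ratios of mean counts. Alternatives were other pseudocounts (0.5, 4), other filters, edgeR 4.0.16 and DESeq2 1.42.0 on the recovered reads, TMM scaling, a replicate block, a sex term, a GC and length correction and leaving out each library. Pairs of members were compared by exact permutation. Named were all 8 members, other Ms4a genes with a mean of at least 10, the 2 nearest genes to each member, genes of each list linked to a member and the 2 of lowest p in each list. One result that this rule would name is not reported here. A few more list genes and the genes beside the cluster were chosen after their values were seen. The members and lists were chosen with earlier results of these data known. The fit was tested on simulated data.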

Additional observations from a re-analysis of the deposited data

How the results depend on the processing

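Over 16 alternatives, 127 of the member values could be recomputed, and all but 1 kept their direction and side of the threshold: Ms4a7 lost its call without control replicate 3 and was not tested at a mean of at least 50. Across the table, 1695 genes were higher and 2163 lower, and leaving out 1 library gave 1032 to 1791 higher and 1372 to 2324 lower, the lowest without control replicate 2 (1032 and 1417) and control replicate 3 (1053 and 1372). Fewer samples enter these fits. With a replicate block, 1550 genes were higher, 2014 lower and all 8 members called; same-numbered libraries did not deviate together (correlations -0.10, 0.04 and -0.06). edgeR called 1687 higher and 2077 lower, DESeq2 1921 and 2315. Of 384 list counts over the alternatives, 30 moved by over 1.5 times: at a mean of at least 50, lower B lineage genes were 4 of 4 tested against 12 of 13, lower T and NK genes 1 against 4 and lower stem genes 1 against 2. With no filter, lower T and NK genes were 8. Lower dendritic genes were 5 against 9 without control replicate 3. Higher IgE receptor genes were 1 against 2 in 5 alternatives and lower ones 5 against 3 without knockout-labelled replicate 2 or 3, and higher erythroid genes ranged from 1 to 4. The remaining moves were of 1 gene, among them Mcpt8, no longer called higher without control replicate 1 or 2, and Ltf, called lower in 6 alternatives. With the longest transcript as length, control levels were 1.58 (Ms4a1), 53.7 (Ms4a2), 1545 (Ms4a3), 114 (Ms4a6c) and 7.86 (Ms4a6d), in the same order. Low read numbers limit Ms4a1 and Ms4a7.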

Other observations

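The genes on either side of the tested Ms4a genes were chosen after the values of the cluster were known. Of the 6 tested genes on the side of Ms4a1, 2 rose, 2 fell and 2 did not pass, and the 6 on the side of Ms4a3 gave the same counts. Of the 9 tested Ms4a genes between them, 8 fell. Across all tested genes, 11.8% were higher and 15% lower. The 2 that fell on the side of Ms4a1 were Tmem109 (820 ± 99.8 to 172 ± 80.8 normalized counts, log2 fold change -2.33, limma adjusted p = 0.000138) and AW112010. AW112010, the nearest tested gene to Ms4a1 on the outer side, was read at 868, 775 and 948 normalized counts in control and at 150.4, 110.4 and 93.6 in the knockout-labelled libraries (log2 fold change -2.88, SE 0.21, limma adjusted p = 7.39e-06). Ptgdr2, which encodes the prostaglandin D2 receptor of basophils, eosinophils and type 2 lymphocytes, rose from 21.8 to 66.5 normalized counts on average (log2 fold change 1.58, SE 0.44, adjusted p = 0.0199). On the side of Ms4a3, Oosp2 (6.64 to 40.8, log2 fold change 2.47, adjusted p = 0.0141) and Oosp1 (133 to 314, log2 fold change 1.27, adjusted p = 0.016), genes known from the oocyte, rose. Oosp2 reached the limit for testing only through the knockout-labelled group. Beyond them Mrpl16, a mitochondrial ribosomal protein gene, fell (log2 fold change -0.43, adjusted p = 0.0193).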
